A study of Drosophila melanogaster with 4 samples.

Results

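MicroRNA genes of Drosophila melanogaster were examined for open chromatin in FAIRE-seq peak lists of female pupal wings. FAIRE-seq enriches DNA depleted of nucleosomes, which stays in the aqueous phase when crosslinked, sheared chromatin is extracted with phenol. The members were all genes of the RefSeq table for Release 6 plus ISO1 MT, the assembly named dm6, whose symbol starts with mir-, which includes bantam (listed as mir-ban) and let-7 (listed as mir-let7). They numbered 262 of 17872 annotated genes. The table gives mir-10404-1 and mir-10404-2 no single chromosome, so they were not analysed here, and the other 260 genes were joined into 210 loci when they lay within 1 kb of each other. Of these loci, 23 held 2 or more microRNAs and 187 held 1. A locus was said to have a peak in a library when a peak summit of that library's list lay within 1 kb of one of its genes.

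The Osa-deGrad wings carried nub-GAL4, UAS-Nslmb-vhhGFP and osa-GFP (2 libraries), and the control wings carried UAS-Nslmb-vhhGFP and osa-GFP without the driver (2 libraries). Wings of both genotypes thus shared a homozygous osa allele tagged with GFP and the deGrad transgene. Osa is a subunit of the Brahma complex, a chromatin remodeler. The transgene encodes an anti-GFP nanobody fused to an F-box, which sends GFP-tagged proteins to degradation. The nub-GAL4 driver switches the transgene on in the wing. Each library pooled 40 wings, from larvae raised at 23 °C and shifted to 29 °C, staged as prepupae of 0 to 12 h and dissected at 24 to 36 h after puparium formation. The series' design text speaks of an anti-GFP CUT&RUN assay in larval discs, so the assay and tissue given here rest on the sample labels and the title. The level of the Osa protein was not measured in these files. The labels do not say that libraries of 1 genotype came from separate crosses, so their spread may be technical.

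MicroRNAs are short RNAs that guide Argonaute proteins to messenger RNAs and lower their translation or stability. They are cut from hairpins. A hairpin can lie in a long noncoding primary transcript or in an intron of a protein-coding gene, whose promoter it may share. An open region beside a hairpin may therefore belong to the microRNA, to the gene around it or to a neighbour, and the promoter of a microRNA can lie many kb away. In the developing wing, bantam is known as a growth promoter that blocks apoptosis, mir-9a as a brake on sensory organ formation, and let-7 as a marker of metamorphosis under ecdysone control.

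The Osa-deGrad lists held 13959 and 17048 peaks and the control lists 13953 and 18007. The longer list of each genotype was that of replicate 2. Read depth is unknown from these files, and a site missing from a list can lie just under the caller's threshold. All 5 wing genes checked (nub, vg, ap, sd and bs) had peaks within 1 kb of the gene in all 4 lists. Genes used as markers of muscle, neurons, glia, hemocytes, fat body and trachea had peaks in all 4 lists for 7 of 15, while Mhc, nSyb, NimC1, Fbp1 and btl had none in any list. Over all 13922 protein-coding genes that share was 45.5%, so 7 of 15 lay near the background. The part of such cells in the results was not tested. In whole wings, a site open in few cells and a site weakly open in many cells cannot be told apart.

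Between 23.3% and 30% of the loci had a peak in a library, and over the whole lists the Osa-deGrad values overlapped with those of the controls. Of 210 loci, 59 (28.1%, 95% Wilson interval 22.5 to 34.5) had a peak in Osa-deGrad 1 and 58 (27.6%, 22.01 to 34.03) in Osa-deGrad 2. In the controls, 49 (23.3%, 18.1 to 29.5) had one in control 1 and 63 (30%, 24.2 to 36.5) in control 2. Both Osa-deGrad values lay between the 2 control values. The mean was 58.5 ± 0.707 in Osa-deGrad wings, against 56.0 ± 9.90 in control wings (SD, n = 2 each), a difference of 2.5 loci (exact permutation test, two-sided, p = 1, where 2 against 2 libraries cannot go below 0.333). Within the replicate numbers the difference was 10 loci for replicate 1 and -5 for replicate 2. Without control 1 the difference was -4.5 loci, and without control 2 it was 9.5. With each list trimmed to its 13953 most significant peaks, the length of the shortest, 59 and 53 loci had a peak in Osa-deGrad wings, against 49 and 51 in controls. Both Osa-deGrad libraries then lay above both controls, by 6 loci in the mean (exact permutation test, two-sided, p = 0.333, the smallest that 2 against 2 libraries can give). The Wilson intervals cover counting error over loci only.

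**Figure D1:**
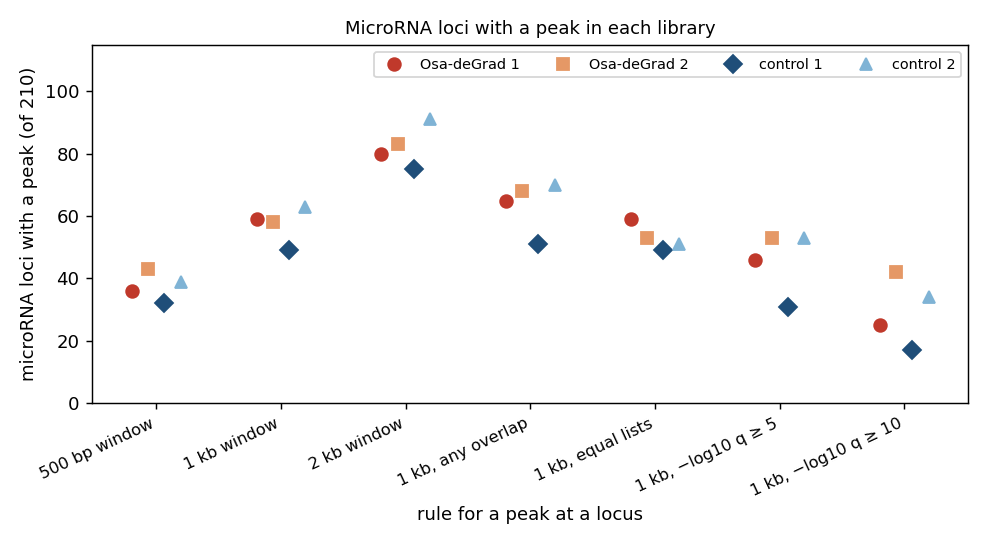
Number of the 210 microRNA loci with a peak (y axis) in each library (red circle Osa-deGrad 1, orange square Osa-deGrad 2, dark blue diamond control 1, light blue triangle control 2) under 7 rules for a peak at a locus (x axis). Control 1 had the fewest loci under each of these rules, from 17 to 75, while the Osa-deGrad libraries and control 2 changed places.

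MicroRNA loci had peaks less often than the ends of protein-coding genes in each library, as a description without a test. A summit lay within 1 kb of 34.2% and 41.3% of 27844 such ends in Osa-deGrad wings and of 30.5% and 39.8% in control wings. A window at a gene end spans about as much sequence as that at a hairpin. Neighbouring gene ends were not joined, unlike microRNA genes, so 1 summit can count for several ends. Loci of snoRNAs, small RNAs that guide the chemical modification of other RNAs, were at 45.7% and 50.0% in Osa-deGrad wings, against 44.0% and 55.2% in control wings (116 loci joined by the same rule). Within a list, the strongest peak at a microRNA locus had a median percentile of −log10 q of 63.5 and 62.9 in Osa-deGrad wings, against 49.0 and 52.5 in controls, where 100 is the most significant peak of that list. Some windows held several peaks (82 and 84 peaks at the loci in Osa-deGrad wings, 66 and 87 in controls), and taking the strongest raises such a median. The same median was not taken for gene ends. A summit lay on the hairpin itself at 0 and 6 loci in Osa-deGrad wings, against 3 and 4 in controls. Hairpins are a small part of the window, with a median length of 92 bp. A peak covered some of the hairpin at 13 and 19 loci in Osa-deGrad wings, against 11 and 15 in controls.

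**Figure D2:**
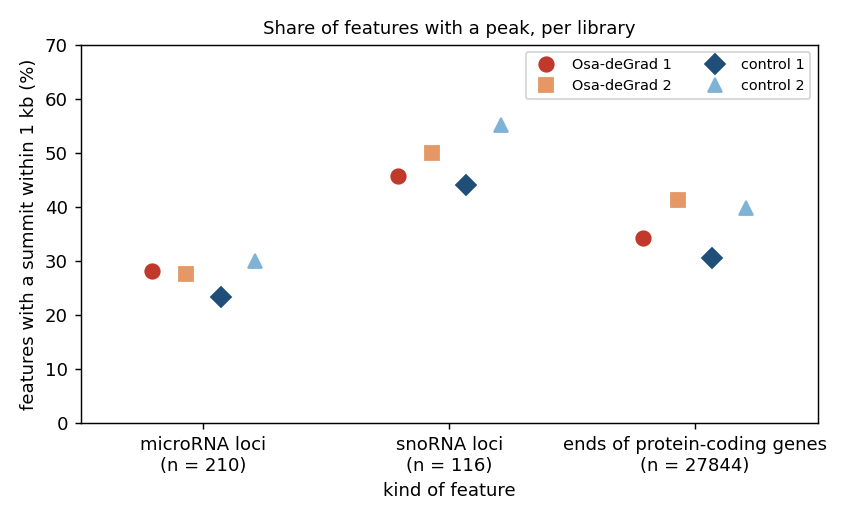
Share of features with a peak summit within 1 kb (y axis, percent) for microRNA loci, snoRNA loci and ends of protein-coding genes (x axis), with 1 point per library. In each library the microRNA loci lay lowest, between 23.3% and 30%.

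Loci inside and outside other genes had peaks at similar shares, within wide intervals. Of 175 loci inside an annotated gene, 63 (36.0%, 95% Wilson interval 29.3 to 43.3) had a peak in at least 1 list, as had 13 of 35 loci outside genes (37.1%, 23.2 to 53.7). The difference of -1.14 percentage points had a 95% interval of -18.99 to 14.6. Of 145 loci inside protein-coding genes, 52 had a peak in at least 1 list, as had 11 of 30 inside noncoding genes alone. By chromosome, the share in at least 1 list was 35.7% on 2L, 45.0% on 2R, 33.3% on 3L, 31.4% on 3R and 35.6% on X, with 1 of 2 loci on chromosome 4. Strand was not given in the gene table, so a hairpin inside a gene may lie on the opposite strand.

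Of the 210 loci, 76 (36.2%) had a peak in at least 1 list and 38 (18.1%) in all 4. With the same 1 kb window but without joining neighbours, 46.9% of ends of protein-coding genes had a peak in at least 1 list and 24.3% in all 4. Over all 17424 other genes, also not joined and with longer windows, the shares were 63.8% and 41.3%. A further 13 microRNA loci had a peak in 3 lists, 13 in 2 and 12 in 1, and 134 had none. At 36 of the 38 loci some base lay under a peak of all 4 lists. At mir-279 and mir-4986 the peaks of the 4 lists were joined only through overlaps between neighbours. A rank below belongs to the strongest peak of a library within 1 kb, and at 28 loci these 4 peaks fell in 1 merged region. At the other 10 they came from different regions (mir-11182, mir-14, mir-275/mir-305, mir-279, mir-308, mir-4957, mir-4962, mir-4985, mir-9370 and mir-980). For mir-308 this rests on a tie in Osa-deGrad 1, where the peak not taken ranked equally at 39.4. That peak lay in the region holding the strongest peaks of the other lists. Of the 38, 28 lay inside a protein-coding gene, 4 inside noncoding genes alone and 6 outside genes. At 19 of them the strongest summit lay within 500 bp of an end of another gene in all 4 lists, at 6 in some lists and at 13 in none. The same share over all peaks was not taken, so these counts are a description only.

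The 4 loci with the highest mean rank over the lists stood at 90.99 or higher in every list. At mir-4978, inside mam, which encodes the Notch coactivator Mastermind (2R, 14005860 to 14006006), the strongest peak ranked at the 99.2 and 98.8 percentile in Osa-deGrad wings, against 97.9 and 97.2 in control wings. The authors' fold enrichment there was 16.0 and 11.6 in Osa-deGrad wings, against 14.5 and 12.7 in controls. Its region (14005563 to 14006467) covered the hairpin. At mir-4968, inside Mob2, a kinase coactivator gene (3L, 11552539 to 11552693), the ranks were 98.8 and 96.9 in Osa-deGrad wings, against 95.8 and 95.1 in controls. At mir-4962, inside Tlk, the Tousled-like kinase gene (X, 3777382 to 3777505), they were 96.3 and 98.2 in Osa-deGrad wings, against 93.3 and 98.3 in controls. The Osa-deGrad 1 peak lay in another region than the other 3, in whose region (3778008 to 3778603) Osa-deGrad 1 ranked at 88.9. These loci held 3 regions found in all 4 lists at mir-4962 and 2 each at mir-4978 and mir-4968, none of them nearer than 8426 bp to an end of another gene. The mir-4917 locus, inside the yolk protein receptor gene yl (X, 14199545 to 14199621), ranked at 93.1 and 99.6 in Osa-deGrad wings, against 98.5 and 90.99 in controls, but its region lay 288 bp from an end of another gene, CG11590.

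The mir-277/mir-34 locus ranked highest among loci inside noncoding genes alone. Both hairpins lie inside lncRNA:CR43459 (3R, 10100022 to 10101034). mir-34 is known from studies of ageing in flies and is under ecdysone control, and mir-277 regulates amino acid metabolism. The peak ranked at 98.8 and 77.7 in Osa-deGrad wings, against 83.5 and 92.1 in controls, with a fold enrichment of 15.0 and 6.84 in Osa-deGrad wings, against 8.54 and 10.4 in controls. Libraries of the same genotype thus differed as much as libraries of different genotypes. The region, from 10100528 to 10100941, ran from between the hairpins up to the edge of the mir-34 hairpin, and its strongest summit lay 712 bp inside the noncoding gene. The neighbouring mir-317 (3R, 10091126 to 10091217) also had a peak in all 4 lists, at ranks of 54.3 and 40.8 in Osa-deGrad wings, against 48.97 and 22.3 in controls.

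The paired hairpins mir-92a and mir-92b, which act in neural stem cells, lie inside jigr1 on 3R. At mir-92a the ranks were 88.5 and 96.03 in Osa-deGrad wings, against 78.1 and 85.5 in controls. At mir-92b they were 78.9 and 60.1 in Osa-deGrad wings, against 20.6 and 57.8 in controls. The mir-92a peak lay 3332 bp from the nearest gene end and the shared mir-92b peak 431 bp from an end of jigr1. At mir-275/mir-305, known from the gut and outside annotated genes (2L, 7425795 to 7426044), 4 regions were found, of which 1 was in all 4 lists and the other 3 were missing from control 1 alone. The region in all 4 lists (7425600 to 7426014) ranked at 64.9 and 36.6 in Osa-deGrad wings, against 37.5 and 66.2 in controls. At mir-995, inside the cell cycle kinase gene Cdk2, the ranks were 75.9 and 71.6 in Osa-deGrad wings, against 19.3 and 68.1 in controls, with the region 103 bp from an end of Cdk2.

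Most of the other loci among the 30 highest-ranking lay near ends of annotated genes, a description without the same share over all peaks. Loci with all strongest summits within 500 bp of another gene's end were mir-2501 (inside Nulp1), mir-2496, mir-966 (Pfas), mir-4955 (trol, the perlecan gene), mir-4918 (tex), mir-982/mir-303, mir-3645 (Mlc-c), mir-9380 (CG7352), mir-980 (CG3777), mir-308 (RpS23), mir-11182 and mir-986 (Cyp4e2), beside mir-14, mir-995 and mir-4917. Ranks at the first 12 of these ran between 28.6 at mir-980 and 90.8 at mir-966 in Osa-deGrad 1, and between 9.95 at mir-3645 and 89.8 at mir-2496 in control 1. In some lists this held at mir-4985 (Fatp3), mir-9370 (Amun) and mir-4957 (Top1). It held in none at mir-4946, inside the LIM-homeodomain gene tup and 7227 bp from its end, at mir-4977 (Eaf), or at mir-9377, inside Tis11, which encodes an RNA decay factor. At mir-4946 the ranks were 80.8 and 84.4 in Osa-deGrad wings, against 74.9 and 67.4 in controls. At mir-9377 they were 79.3 and 65.4 in Osa-deGrad wings, against 26.1 and 97.3 in controls, so the 2 control libraries lay farthest apart. Of the 38 loci, 13 ranked above 50 in all 4 lists and 1, mir-4986, below 50 in all 4.

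**Figure D3:**
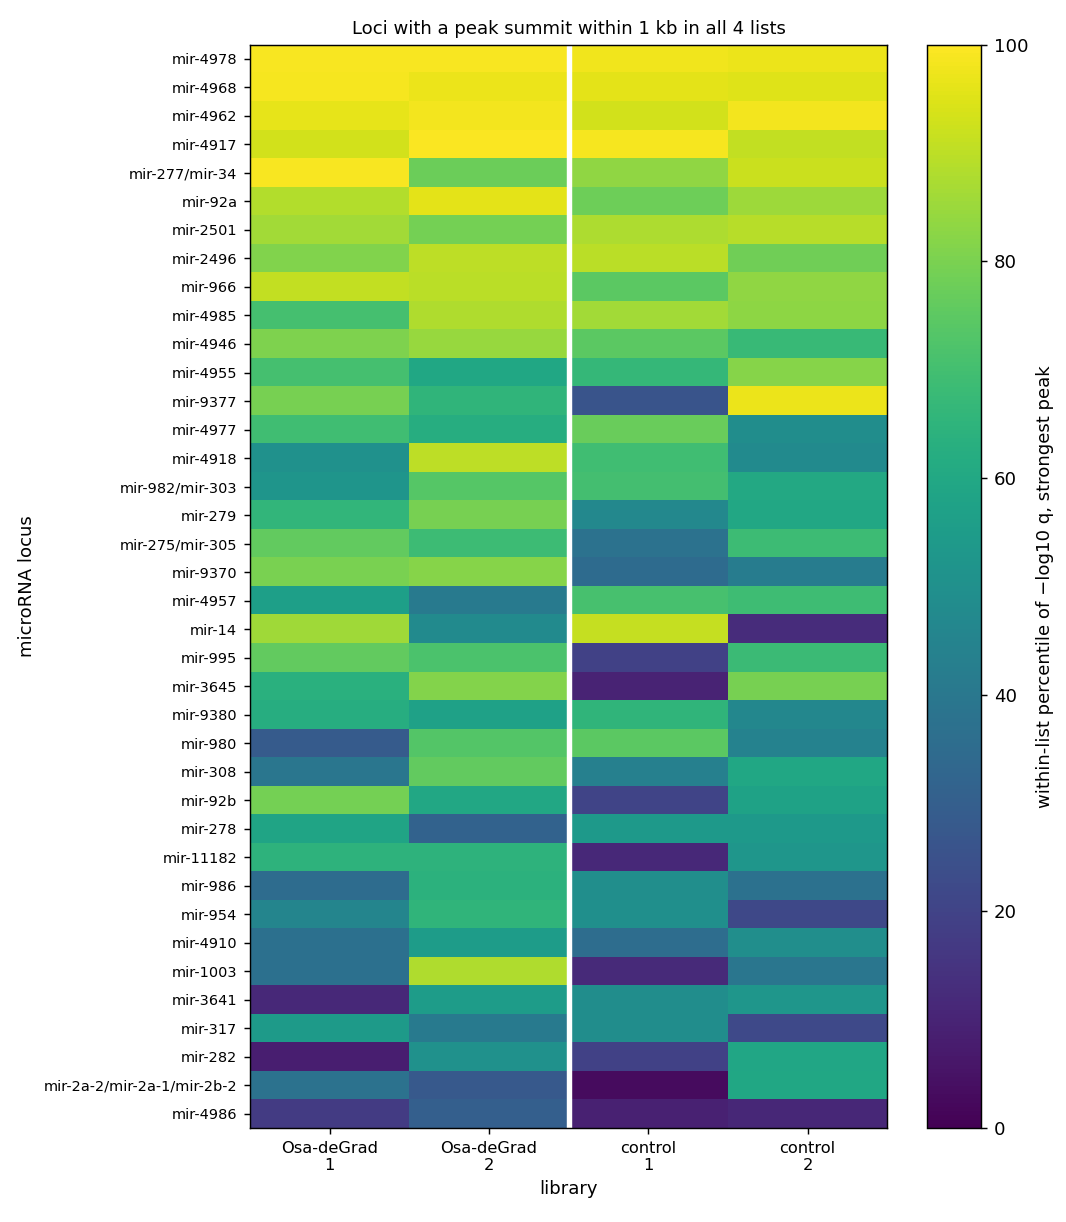
Within-list percentile of −log10 q of the strongest peak (colour, 0 to 100) at the 38 microRNA loci with a peak in all 4 lists (rows, ordered by the mean over lists) in the 2 Osa-deGrad and 2 control libraries (columns). The upper rows are high in all 4 columns, and control 1 is darker than the other 3 columns at loci such as mir-995, mir-3645 and mir-11182.

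Peaks present in 1 genotype alone were rare at microRNA loci. A single locus, mir-2489, had a peak in both Osa-deGrad lists and no control list (0.476% of 210), where 0.861% of all other genes and 0.905% of ends of protein-coding genes did. No locus had a peak in both control lists and no Osa-deGrad list, and 0 of 210 allows a share of up to 1.43%. The background for that direction was 0.614% of other genes and 0.506% of gene ends. These counts were thus near the background. mir-2489 lies inside kuz, which encodes a metalloprotease that cleaves Notch (2L, 13609974 to 13610068). Its region (13610196 to 13610400) ranked at 33.2 and 4.72 in the Osa-deGrad lists, with a fold enrichment of 4.26 and 2.58. The nearest control summits lay 2131 and 1825 bp from the hairpin. With a −log10 q of at least 5, or with lists trimmed to equal length, mir-2489 no longer had peaks in both Osa-deGrad lists alone.

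By merged regions rather than loci, 117 regions lay at microRNA loci, 86 of them in at least 2 lists and 50 in all 4 (58.1%, against 50.0% of all 15813 regions in at least 2 lists). Of the 86, 2 were in both Osa-deGrad lists only (2.33%, against 3.35% of all such regions) and 1 in both control lists only (1.16%, against 5.45%). Besides the mir-2489 region, a region near mir-980 (X, 279167 to 279356) was found in Osa-deGrad 1 and 2 alone, at ranks of 28.5 and 73.4. Beside it lay a region present in all 4 lists (279466 to 279760), 54 bp from an end of CG3777. The control-only region lay near mir-8 (2R, 16832057 to 16832288), at ranks of 52.01 in control 1 and 26.95 in control 2.

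Most differences in presence involved 1 library. Of the 13 loci with a peak in 3 lists, 9 lacked it in control 1, 3 in Osa-deGrad 2 and 1 in Osa-deGrad 1. At mir-967, mir-4974 and mir-8, the 3 loci without a peak in Osa-deGrad 2, the nearest summit of that list lay 1135, 1028 and 1076 bp away, just outside the window. Among the 13 loci with a peak in 2 lists, 5 had it in the replicate 2 lists, 2 in the replicate 1 lists, 4 in Osa-deGrad 1 with control 2, 1 in Osa-deGrad 2 with control 1, and 1 in both Osa-deGrad lists. At the edge of the window, 5 and 2 loci of the Osa-deGrad libraries and 2 and 4 of the control libraries had their nearest summit in the last 100 bp inside it. In the next 100 bp outside it lay those of 3 and 8 loci of the Osa-deGrad libraries and 2 and 5 of the control libraries.

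MicroRNAs with a known role were described by lists. Together they held 52 microRNAs at 28 loci, of which 13 had a peak in at least 1 list and 6 in all 4. Over all 210 loci the shares were 36.2% and 18.1%, and counts in the short lists below are descriptions beside these. Of the 6 loci for wing growth and patterning (bantam, mir-7, mir-8, mir-9a, mir-14 and mir-278), 5 had a peak in at least 1 list and 2 in all 4, with 4 and 3 loci in Osa-deGrad wings, against 3 and 4 in control wings. mir-14, a suppressor of cell death (2R, 9553762 to 9553824), had its strongest peak at ranks of 85.8 and 47.9 in Osa-deGrad wings, against 91.3 and 12.6 in controls. mir-278, which acts in energy balance (2R, 15657066 to 15657163), was at 58.4 and 31.4 in Osa-deGrad wings, against 54.1 and 53.6 in controls. A broad region over mir-14 (9551720 to 9553838) had its strongest summit beyond 1 kb in Osa-deGrad 2 and control 2, the libraries with the lower ranks. By that summit the region ranked at 85.8 and 95.03 in Osa-deGrad wings, against 91.3 and 93.4 in controls, high in all 4.

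bantam itself (3L, 642208 to 642288) had a peak within 1 kb in the replicate 2 libraries alone, at ranks of 71.1 in Osa-deGrad 2 and 10.9 in control 2, and no region there was shared between these 2 lists. The rank of 71.1 belonged to a peak 482 bp away, and a summit on the hairpin itself, in Osa-deGrad 2 alone, ranked at 2.46 with a fold enrichment of 2.54. The nearest summits lay 1672 bp away in Osa-deGrad 1 and 1695 bp in control 1. mir-8, a regulator of growth (2R, 16831432 to 16831518), had ranks of 81.6 in Osa-deGrad 1, 90.4 in control 1 and 26.95 in control 2. A region beside it (16830102 to 16831264) was in all 4 lists, at 87.5 and 93.2 in Osa-deGrad wings, against 90.4 and 95.9 in controls, with its strongest summit beyond 1 kb in both Osa-deGrad libraries and control 2. mir-9a (3L, 19565131 to 19565208) had a peak in Osa-deGrad 1 alone, at 69.9, and the nearest summits of the other lists lay 2694 bp away in Osa-deGrad 2 and 2702 and 2744 bp in control wings. mir-7, which acts with Notch and EGF receptor signalling, had none, with the nearest summits at 2692 and 2588 bp in Osa-deGrad wings, against 5230 and 5246 bp in controls.

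The heterochronic cluster mir-100/mir-let7/mir-125 (2L, 18471434 to 18472424) had no summit within 1 kb in any list. Its nearest summits lay 1105 and 1082 bp away in Osa-deGrad wings, against 1513 and 1132 bp in control wings, so all 4 fell within 2 kb. Among bristle and sensory organ microRNAs, mir-279, which limits a class of olfactory neurons (3R, 29215585 to 29215684), had a peak in all 4 lists at ranks of 65.6 and 79.6 in Osa-deGrad wings, against 46.5 and 59.9 in controls. The control 1 peak lay on the other side of the hairpin, in a region of that list alone. In the merged region of all 4 lists (29214129 to 29215460) the ranks were 76.9 and 79.6 in Osa-deGrad wings, against 37.7 and 70.98 in controls. mir-996, which shares its seed with mir-279, had none within 1 kb. mir-bft, the table's name for mir-263a, and mir-263b, which protect bristles from apoptosis, had none either. For mir-bft the nearest summits lay 1804 and 1823 bp away in Osa-deGrad wings, against 1769 and 1845 bp in controls.

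The 3 Hox cluster loci (mir-10, mir-993 and mir-iab-4/mir-iab-8) had no peak within 1 kb. Neither had the early embryo cluster around mir-309, the muscle microRNA mir-1 or the neuronal microRNA mir-124. mir-124 lay farthest from open chromatin of these, with the nearest summits at 54871 and 37022 bp in Osa-deGrad wings, against 65198 and 54831 bp in controls. Of 4 loci of testis clusters, 1, around mir-972, had a peak in Osa-deGrad 1 alone, at a rank of 39.4. Of 7 loci with the K-box seed, a family that targets the cell death genes reaper, grim and sickle, 5 had a peak in at least 1 list and 2 in all 4, where 36.2% and 18.1% of all loci did. The 2 were mir-308, inside the ribosomal protein gene RpS23, and mir-2a-2/mir-2a-1/mir-2b-2, inside spi, an EGF receptor ligand gene. At mir-308 the ranks were 39.4 and 75.9 in Osa-deGrad wings, against 43.5 and 59.4 in controls. At the spi locus they were 37.8 and 27.9 in Osa-deGrad wings, against 2.85 and 59.7 in controls. mir-13b-1/mir-13a/mir-2c and mir-998/mir-11, the second inside the cell cycle gene E2f1, had a peak in the replicate 1 libraries only. mir-2b-1 had one in control 1 only, and the nearest summits of the other 3 lists lay between 1007 and 1031 bp away.

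**Figure D4:**
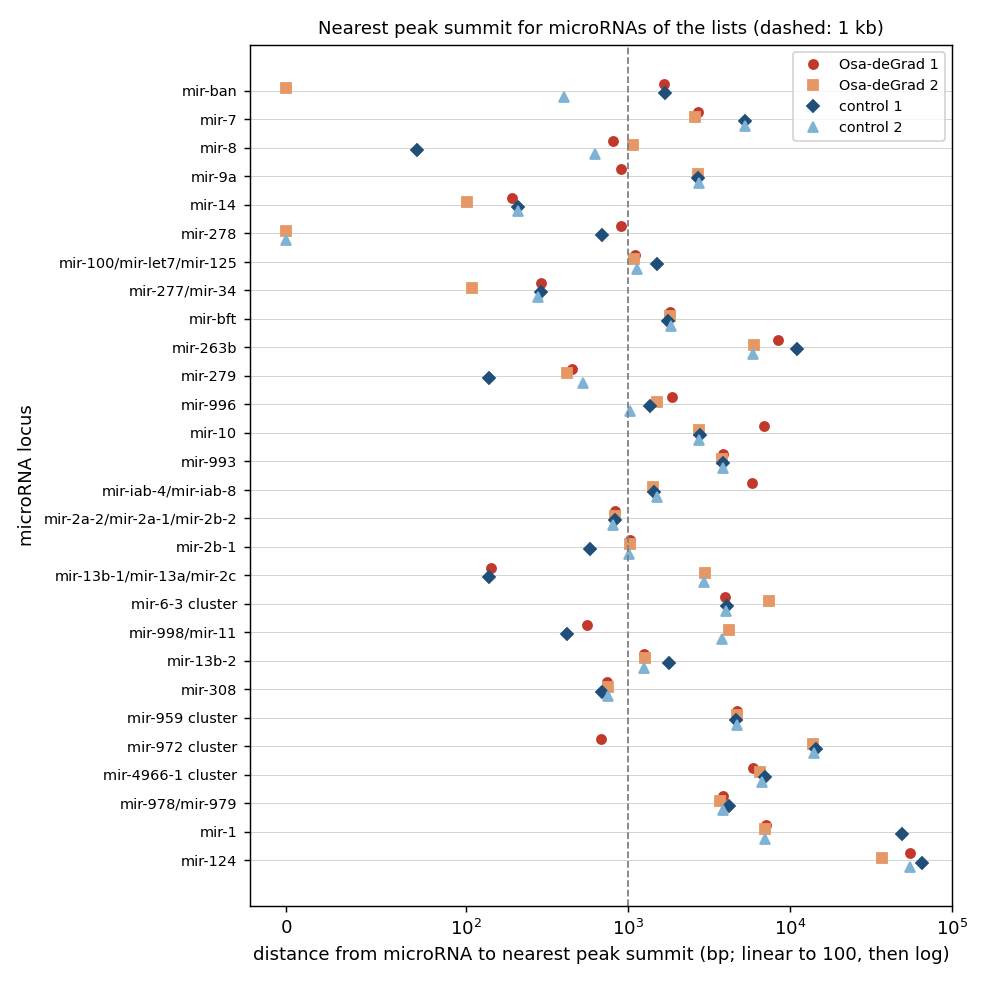
Distance from each microRNA locus of the lists (y axis) to the nearest peak summit (x axis, bp, linear up to 100 and logarithmic beyond) in each library. The dashed line marks the 1 kb window, and 6 of 28 loci have all 4 points left of it, among them mir-14, mir-277/mir-34 and mir-279.

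Regions farther from the hairpins were then described at the annotated noncoding genes around them, a comparison added after the counts within 1 kb were known. Of 35 lncRNA genes that contain a microRNA locus, 12 (34.3%, 95% Wilson interval 20.8 to 50.8) had a summit within 500 bp of an end in all 4 lists, against 13.8% of 1924 other lncRNA genes. The median length was 6494 bp for the genes around microRNAs and 654 bp for the others, and the part of length in this gap was not tested. Of protein-coding genes, 75 of 148 with a microRNA locus inside (50.7%) had such an end, against 33.8% of the others, with median lengths of 14201 and 2139.5 bp.

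Several microRNAs without a summit within 1 kb in all 4 lists had a peak in all 4 at an end of the gene around them. For loci without a peak in any list, this held for 5 of 25 pairs of a locus and a lncRNA gene around it. It held for 39 of 95 pairs with a protein-coding gene. Of genes without a microRNA locus, 13.8% of lncRNA genes and 33.8% of protein-coding genes had such an end. The genes below were picked among those with a peak. lncRNA:CR43334, listed as the bantam primary transcript (3L, 628435 to 643900), had a peak at its lower-coordinate end, 13773 bp from the hairpin. It ranked at 96.7 and 98.03 in Osa-deGrad wings, against 96.7 and 98.3 in controls, and was high in all 4 libraries. lncRNA:let7C (2L, 18455717 to 18473132) had one at its lower end, 15717 bp from the cluster, at 84.4 and 80.6 in Osa-deGrad wings, against 92.6 and 87.5 in controls. Both Osa-deGrad ranks were the lower there. lncRNA:CR43650, around mir-8, was at 98.5 and 97.6 in Osa-deGrad wings, against 83.9 and 99.1 in controls. The 3 genes thus had strong peaks in all 4 lists.

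The gene around mir-9a (lncRNA:CR45916) had an end at ranks of 93.7 and 95.1 in Osa-deGrad wings, against 81.1 and 93.3 in controls. That around mir-bft (lncRNA:CR43314) was at 86.1 and 94.8 in Osa-deGrad wings, against 72.2 and 94.8 in controls, at the end 17591 bp from the hairpin. The lower end of lncRNA:CR43651 lay in the broad region over mir-14 given above. The upper end of lncRNA:CR42651, around mir-10, was at 84.4 and 68.2 in Osa-deGrad wings, against 7.02 and 9.03 in controls. Both Osa-deGrad ranks were the higher there, whereas both were the lower at lncRNA:iab4, around mir-iab-4, with 28.1 and 45.8 in Osa-deGrad wings, against 55.7 and 66.9 in controls. Each rank is a place within its own list, and no difference in signal was tested.

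**Figure D5:**
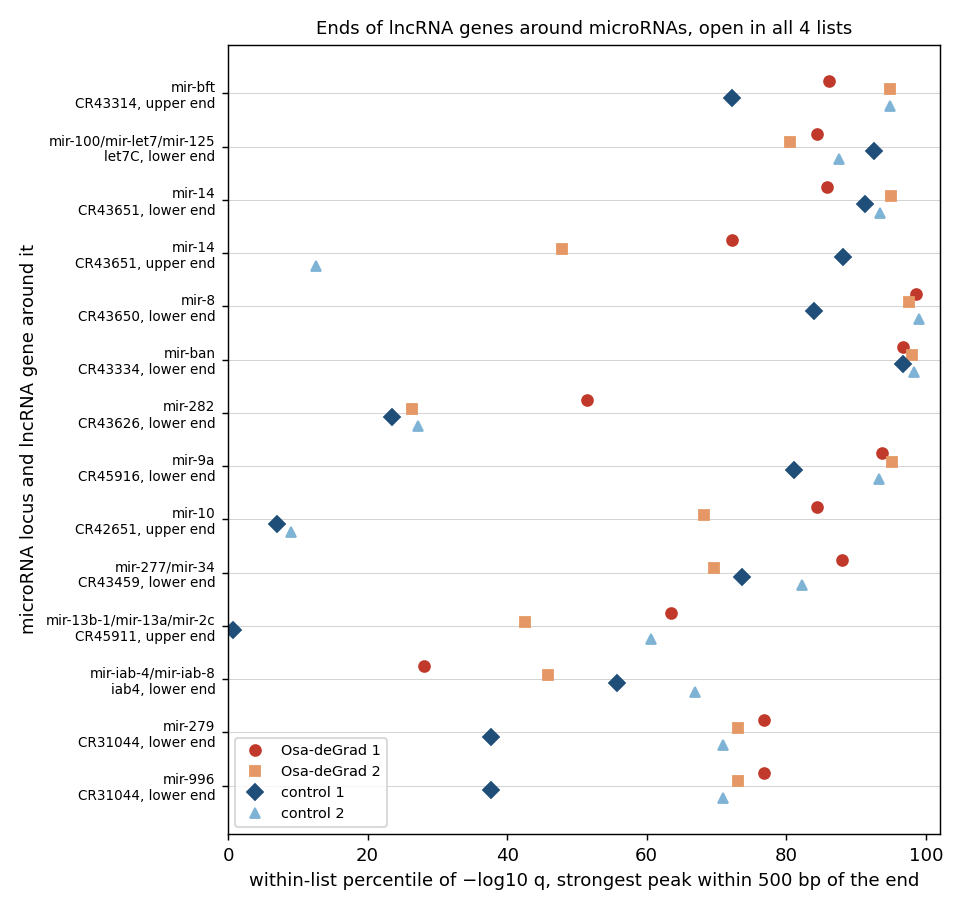
Within-list percentile of −log10 q (x axis) of the strongest peak within 500 bp of an end of the lncRNA gene around a microRNA locus (y axis, with lower and upper end by coordinate), for ends with a peak in all 4 lists. The ends around bantam, mir-8, mir-9a and let-7 lie above 80 in all 4 libraries. That around mir-10 lies at 84.4 and 68.2 in Osa-deGrad wings, against 7.02 and 9.03 in controls. Ranks of the genotypes also part at the ends around let-7, mir-9a, mir-iab-4 and mir-279 with mir-996, and overlap at the others.

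The 134 loci without a peak in any list lay a median of 5864 and 5126 bp from the nearest summit in Osa-deGrad wings and 5927 and 5127 bp in control wings. For 28 of them a summit of at least 1 list lay within 2 kb, and for 54 none of any list lay within 5 kb.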

How the data were processed

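The authors deposited 1 narrowPeak list per library on dm6, so peaks were called per library. Per the submitters' processing notes, which give no roles, the tools were MACS2 2.1.2, Bowtie2 2.3.4.1, deepTools 2.4.1, Picard 2.2.4 and SAMtools 1.9. The caller's settings were not given in the sources used here. In the deposited lists each peak has a fold enrichment (a ratio), a −log10 p, a −log10 q, a summit offset and a score, which is the −log10 q times 10 without its decimals. The lowest −log10 q was 1.31 to 1.40 per list, and depth is unknown.

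Summits (1-based) were set against gene coordinates with Python 3.11.15, pandas 2.3.3 and scipy 1.17.1. The peak counting was tested on simulated data. The strongest peak of a locus is the one with the highest −log10 q, and its percentile was taken within its own list. Peaks overlapping by at least 1 bp were merged into regions. The gene table has no strand, exons or sequence. Named were the 30 highest-ranking loci with a peak in all 4 lists, loci specific to a genotype and the listed microRNAs; others named were chosen after their values were seen. Members and lists were chosen with earlier results of these data known.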

Additional observations from a re-analysis of the deposited data

How the results depend on the processing

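Every alternative here was planned. Of 397 alternative values, 50 of 73 values for whole sets kept their direction or size, 16 moved and 7 reversed, and 273 of 324 values for single loci stayed the same while 51 moved and 0 reversed. The cause was not tested, except that stricter rules leave fewer peaks and that, with 1 library left out, 1 list decides a genotype. The difference in the number of loci with a peak (Osa-deGrad minus control) was -1.5 with a 2 kb window and ranged from -4.5 to 9.5 when 1 library was left out. With the replicate block, which pairs libraries by number, it was 2.5 (exact sign-flip test over 2 pairs, p = 1). Loci in all 4 lists numbered 24 with a 500 bp window, 58 with a 2 kb window and 11 with a −log10 q of at least 10, and ranged from 38 to 47 with 1 library left out. Loci in at least 1 list numbered 50 with a −log10 q of at least 10. Loci in both Osa-deGrad lists only numbered 0 with a 2 kb window and 2 in lists of equal length. With 1 library left out they ranged from 1 to 10. Loci in both control lists only numbered 3 with a 2 kb window and 1 each with a −log10 q of at least 5 or 10. With 1 library left out they ranged from 1 to 4. Which locus was specific depended on the rule, with mir-1008 and mir-9370 in Osa-deGrad wings at minima of 5 and 10, and mir-4974 and mir-4957 in control wings. The gap between loci inside and outside genes was 11.4 percentage points with a 2 kb window and 4.57 with a −log10 q of at least 10. It was 1.64 with every microRNA counted by itself, and ranged from -3.43 to 1.14 with 1 library left out. Without read counts, a missing peak cannot be told from one just under the threshold.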
